A study of Caenorhabditis elegans with 21 samples.

Results

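Cuticle collagens were followed through 7 genotypes of young adult Caenorhabditis elegans. The members are the loci of the deposited count table with a gene name made of col, rol, sqt or bli and a number, or with the name dpy-2, dpy-3, dpy-4, dpy-5, dpy-7, dpy-8, dpy-9, dpy-10, dpy-13, dpy-14, dpy-17 or lon-3. The rule took 177 of 33886 loci, which carry 181 matching names. Of these loci, 133 had enough counts to be tested and 44 did not. The highest count of an untested member in any library was 67, and 2 of them had no count at all. The RefSeq annotation (WBcel235) holds 180 of the names, 178 as protein-coding genes and 2 as pseudogenes. A total of 20 loci join more than 1 gene, and 16 of these include a gene outside the rule, so their values cannot be given to the collagen alone. The name of such a locus here lists its genes with slashes. The names also take in 5 genes that do not encode cuticle collagens. They are bli-3 (a dual oxidase that cross-links the cuticle), bli-4 (a proprotein convertase), bli-5 (a protease inhibitor), rol-3 (a receptor tyrosine kinase) and col-99 (a transmembrane collagen).

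Poly(A) RNA of whole day 1 adults was sequenced in 3 libraries per genotype, 21 in all. They cover wild-type N2, the single mutant daf-2(e1370) and 5 strains that carry daf-2(e1370) together with a daf-16 mutation: mu86 (a null mutation), mg54 (which affects the daf-16a and daf-16f isoforms), tm5030 and tm5032 (separate mutations of daf-16a) and tm6659 (a mutation of daf-16f). All strains but N2 thus share the daf-2 mutation, and they are named below by their daf-16 allele, with daf-2 for the strain that has wild-type daf-16. Eggs were laid over 4 hours, and the animals were raised at 15 °C to the L4 stage and spent a further 20 to 24 hours at 20 °C. The labels do not say whether libraries of a genotype came from separate cultures, so p-values measure the spread between these libraries, which may be technical.

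The cuticle of a nematode is an extracellular matrix that the epidermis secretes anew before each moult, and collagens make up most of its protein. Furrow collagens form the circular furrows of the body surface, and strut collagens hold the layers of the adult cuticle apart. Mutations in various members, these included, leave animals short, long, rolled or blistered. Signals of insulin-like peptides reach the cell through the receptor DAF-2. When that signal is low, the FoxO transcription factor DAF-16 gathers in the nucleus, and some collagens have been tied to the long life of such animals.

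Library totals ran from 30384772 to 47170645 counts. Levels are given as CPM (counts scaled by TMM to a common library size) when 1 locus is compared between libraries, and as FPKM (corrected for transcript length) when loci are compared with each other. A locus is called higher or lower when the Benjamini-Hochberg adjusted p of edgeR's quasi-likelihood test over 12091 loci was under 0.05, and log2 fold changes are given with their standard error (SE). The whole daf-16 locus stood at 182 to 192 CPM in N2, 142 to 175 in daf-2, 145 to 167 in mu86, 94 to 94.4 in mg54, 135.4 to 156 in tm5030, 157 to 181 in tm5032 and 49 to 70.1 in tm6659. A count over the whole locus does not show which exons are missing, and so does not check the mu86 label. In whole animals, fewer cells of a type and less RNA per cell cannot be told apart.

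The members spanned a wide range of levels. A group of 23 loci had a median of at least 100 FPKM over the 21 libraries, and 103 had a median under 1 FPKM. The 8 members with the highest median level were col-181 (2008 FPKM), col-20 (1944), col-122 (1752), col-140 (1650), col-119 (1619), col-124 (1599.7), col-19 (1585) and col-184 (1332). Among these, col-19 is a marker of the adult epidermis, and its lowest library read 679.9 CPM. Neighbours in this order had overlapping ranges. For col-181 the level ran from 1142 to 3043 FPKM and for col-184 from 703.5 to 1777 FPKM. Per library, the ratio of the highest to the lowest CPM over the 21 libraries was between 1.39 and 62.6 for the 23 loci, with a median of 4.27.

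**Figure D1:**
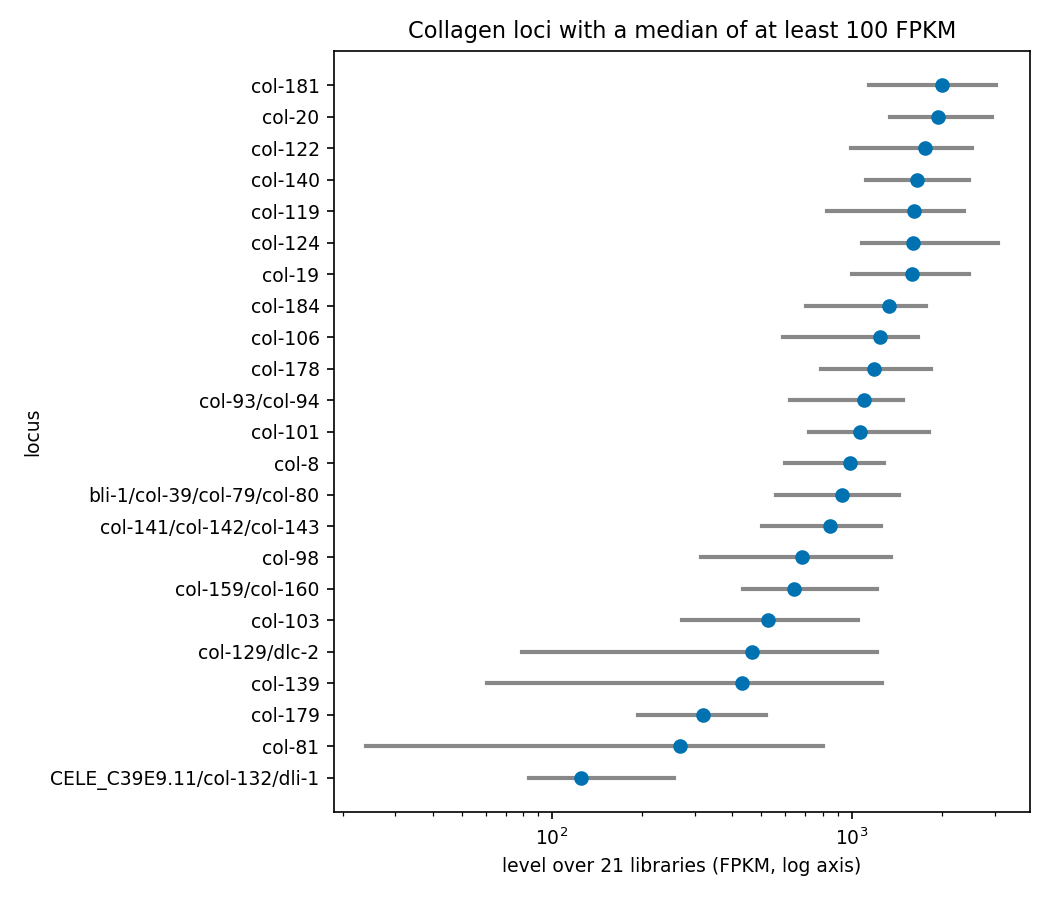
Level of the 23 collagen loci with a median of at least 100 FPKM, on a log axis, 1 locus per line. Points are medians over the 21 libraries and grey lines run from the lowest to the highest library. The 3 loci with the longest lines are col-81, col-139 and col-129/dlc-2.

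Collagen levels varied between libraries of 1 genotype more than those of most loci. The median within-genotype SD of log2 CPM was between 0.35 (tm6659) and 0.67 (mu86) for the members and between 0.19 and 0.29 over all loci. The summed level of the members was 13112, 10796 and 21156 CPM in N2 and 29221, 16612 and 28811 CPM in daf-2. In mu86 it was 21272, 25756 and 42433 CPM, in mg54 25602, 15470 and 40064 CPM, and in tm5030 24322, 17215 and 38827 CPM. In tm5032 it was 25629, 15789 and 35902 CPM, and in tm6659 25783, 23831 and 32618 CPM. Library 3 was the highest in 6 of 7 genotypes, all but daf-2, and library 2 the lowest in 6 of 7, all but mu86. N2 had the lowest mean sum, 15021 ± 5438 CPM (SD, n = 3), and the daf-2 libraries stood at 24881 ± 7164 CPM, with ranges that overlap.

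The same order of libraries was seen in members of very different level. A total of 55 of 133 tested members (41.4%) were higher in library 3 than in library 2 in all 7 genotypes, against 26.3% of all loci, and 10 were lower in all 7, against 20% of all loci. Among the abundant members this was largest in col-81, col-139 and col-129/dlc-2, which were picked after their values were seen. For col-81 the libraries read 66.1, 25.2 and 193.5 CPM in N2, 106.2, 17.6 and 596.3 CPM in tm5030, and 100.3, 14.5 and 432.1 CPM in tm5032. The adult marker col-7 behaved alike at a low level, with 0.69, 0.193 and 7.66 CPM in tm5030 and 2.70, 3.00 and 34.1 CPM in mu86. The body-shape collagen dpy-14 went the other way, with 3.39, 4.86 and 0.441 CPM in N2 and 0.254, 7.22 and 0.279 CPM in mg54.

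Markers of other tissues moved with the libraries as well, some in the order of the collagens and some in the opposite order. The summed level of 36 sperm markers was 458, 388 and 991 CPM in N2 and 1048, 519 and 2567 CPM in tm5030, and over all 21 libraries it ran from 388 to 2714 CPM. Of these markers msp-32 was at 0 in all genotypes and msp-74 in N2. That of 5 body-wall muscle markers ran from 1148 CPM in library 2 of N2 to 4929.5 CPM in library 3 of mg54, and it was 3234, 1682 and 4373 CPM in tm5030. Within genotypes both sums were highest in library 3, except for muscle in daf-2, and lowest in library 2, except in mu86. A set of 6 epidermal markers other than collagens summed to between 239.7 and 334 CPM, and 11 oocyte and eggshell markers to between 6344 and 10258 CPM. The oocyte sum was highest in library 2, except in mu86, and lowest in library 3, except in daf-2. The epidermal sum was highest in library 2, except in mu86 and tm6659, and lowest in library 3, except in daf-2 and tm6659. In tm5030 the epidermal sum was 290.4, 306.9 and 259.1 CPM. The part of these differences in the collagen values was not tested.

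**Figure D2:**
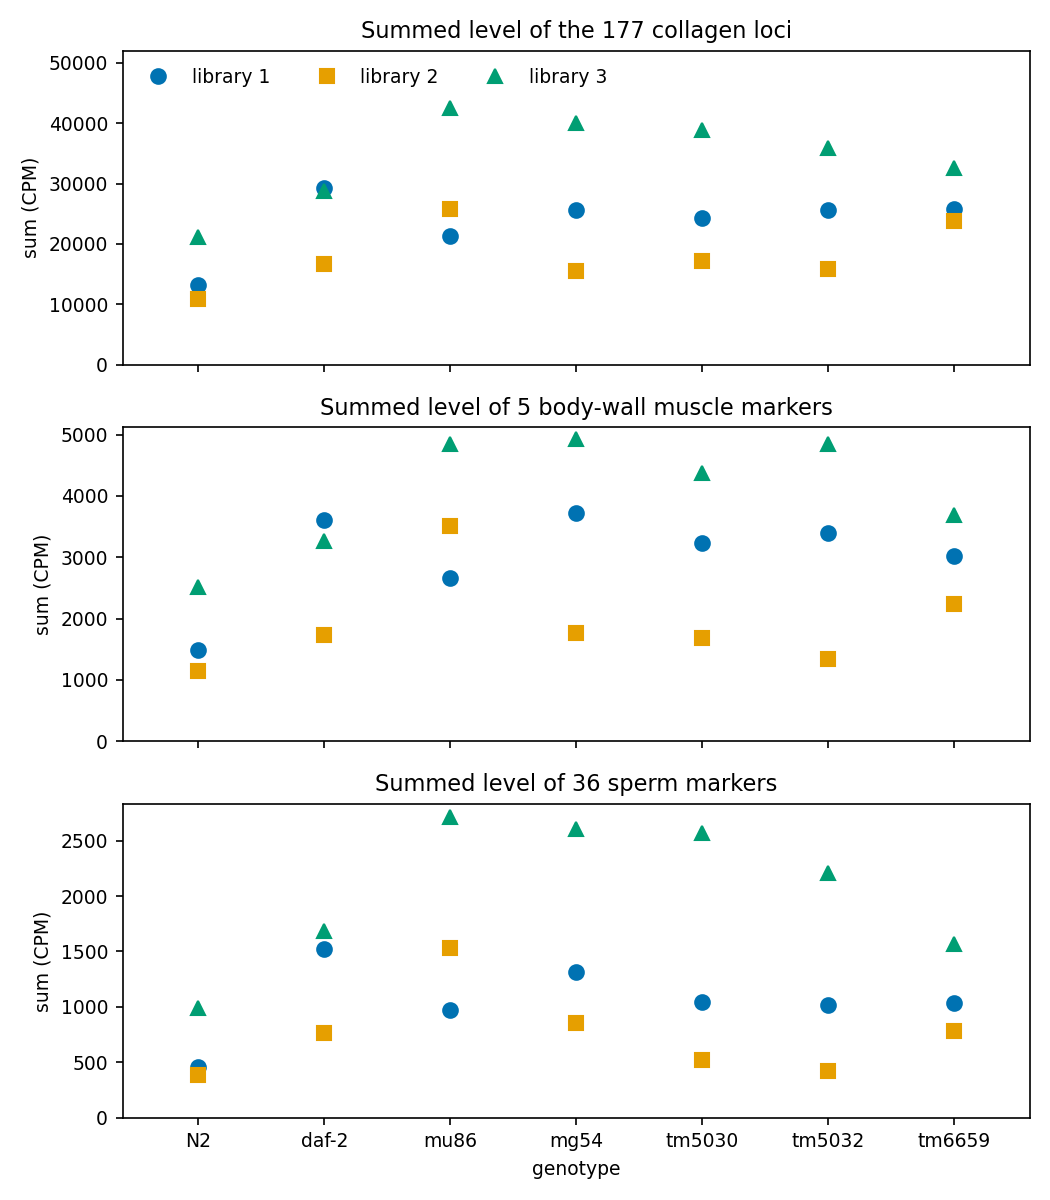
Summed level of the 177 collagen loci (top), of 5 body-wall muscle markers (middle) and of 36 sperm markers (bottom) in CPM, by genotype. Each symbol is 1 library. In mg54 the collagen sum ran from 15470 CPM in library 2 to 40064 CPM in library 3.

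In daf-2 animals, 9 collagen loci were higher and 2 lower than in N2. The increases ranged from 1.85-fold in the col-60 locus to collagens with no count at all in N2, and the decreases were those of sqt-3, a body-shape collagen, and the col-135 locus. Both directions together make 8.27% of the 133 tested members. Of all loci 10.9% were called higher and a further 5.84% lower, so members were called less often. On the scale of the deposited FPKM the split turned to 3 higher and 6 lower with 1 FPKM added, and to 4 and 9 with 0.1 FPKM added. The shares of all loci called on these scales are not given here, and the median of all loci was -0.37 and -0.51 on them. With TMM scaling the median log2 fold change was 0.25 for the members and 0.08 for all loci.

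The collagen col-85 was at 0.0437, 0.0636 and 0.0259 CPM in N2 and at 2.32, 1.18 and 1.72 CPM in daf-2. No daf-2 library came near the N2 range, and the log2 fold change was 5.21 ± 0.48 (SE; adjusted p = 1.67e-06). No count of col-50 was found in N2, while the daf-2 libraries had 82, 35 and 20 counts (2.26, 1.15 and 0.602 CPM), which makes it at least 52.9-fold higher, with 3 counts over the group as the floor (adjusted p = 0.000171). Likewise, col-183 had no count in N2 and 9, 10 and 8 counts in daf-2, and was at least 10.4-fold higher (adjusted p = 0.00953). These are low levels, and floors and intervals cover counting error only.

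Other increases were found in members of middle to high level. For col-76 the libraries read 8.16, 7.92 and 8.01 CPM in N2 and 24.9, 30.9 and 16.5 CPM in daf-2 (log2 fold change 1.58 ± 0.19, adjusted p = 1.93e-05). The blister collagen bli-6 had 4.11, 2.32 and 9.62 CPM in N2 and 50.5, 23.3 and 46.9 CPM in daf-2 (2.91 ± 0.86, adjusted p = 0.0277). Groups did not overlap for either locus. The 2 collagens col-98 (310.4, 240.4 and 562 CPM against 1346, 807 and 1382 CPM) and col-103 (318, 245 and 487 CPM against 1252, 695 and 1210.1 CPM) rose by 1.67 ± 0.45 and 1.59 ± 0.45 (adjusted p = 0.0167 and 0.0221). For col-101, with a median of 1067 FPKM, the N2 libraries held 601, 572 and 894 CPM and the daf-2 libraries 1376, 1214 and 1317 CPM (0.92 ± 0.16, adjusted p = 0.000621). The locus col-60/gly-18/gly-19, which holds glycosyltransferase genes besides the collagen, rose by 0.89 ± 0.23 (adjusted p = 0.012).

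The decreases were as sharply separated. SQT-3 is a collagen needed for body shape from the embryo on, and its gene read 3.45, 5.85 and 4.20 CPM in N2 and 0.773, 1.02 and 0.813 CPM in daf-2 (log2 fold change -2.37 ± 0.40, adjusted p = 0.000575). The locus 21ur-15141/col-135, which also holds the gene of a piRNA, fell from 36.9, 42.9 and 58.5 CPM to 11.6, 7.17 and 7.08 CPM (-2.42 ± 0.35, adjusted p = 1.54e-04). With the deposited FPKM in place of TMM-scaled counts, the median of all loci became -0.37 and that of the members -0.20 with 1 FPKM added, so the sign of the family's median changed with the scaling. It changed as well without library 1 of daf-2, to -0.08, and was 0.11 without library 1 of N2. On both FPKM scales col-76, col-98, col-101, col-103 and the col-60 locus were no longer called. The call of col-183 was lost with 1 FPKM added but held with 0.1 FPKM added. Without library 1 or 2 of N2, or 1 or 3 of daf-2, col-98, col-103 and bli-6 lost the call (adjusted p 0.0613 to 0.127). The col-60 locus lost it without 3 of these libraries, all but library 3 of daf-2 (0.0546 to 0.108).

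With TMM scaling, as many collagen loci were called higher as lower in mu86, the daf-16 null. Against daf-2, 5 members were called higher and 5 lower, which together make 7.52% of the 133 tested. Of all loci 4.13% were higher and a further 6.16% lower. Upper-quartile scaling gave 8 higher and 5 lower, and the FPKM scale 6 higher and 2 lower with 1 FPKM added. The shares of all loci called on these scales are not given here. With upper-quartile scaling the median of all loci was 0.05, against -0.01 with TMM. The 5 lower loci were col-85, col-50, col-183, col-76 and col-86/rict-1, and the 5 higher ones sqt-3, the col-135 locus, col-125, col-168 and col-180. A set of 6 loci was called both here and in daf-2 against N2, each in opposite directions: col-85, col-50, col-183, col-76, sqt-3 and col-135. Both comparisons use the daf-2 libraries, so opposite signs for a locus are not independent.

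In the mu86 libraries col-85 was back at 0.101, 0.0783 and 0.0657 CPM (log2 fold change -4.34 ± 0.45, adjusted p = 6.55e-06). A single count of col-50 was found in the 3 mu86 libraries, against 137 in daf-2, a ratio of 149 (exact 95% interval 26.2 to 5910, adjusted p = 0.000417), and col-183 had none (at least 9.76-fold lower, adjusted p = 0.0149). The level of col-76 was 11.6, 14.3 and 12.8 CPM in mu86 (-0.90 ± 0.18, adjusted p = 0.00347), above that of every N2 library and below that of every daf-2 library. The locus col-86/rict-1, where rict-1 encodes the Rictor subunit of TORC2, fell by 0.64 ± 0.16 on the log2 scale (adjusted p = 0.0131), a call lost without library 2 of daf-2 or library 3 of mu86 (adjusted p = 0.0948 and 0.113).

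The gene sqt-3 had 3.86, 4.23 and 7.26 CPM in mu86 and was higher than in daf-2 by 2.56 ± 0.41 (adjusted p = 0.000417). The col-135 locus had 40.7, 34.3 and 22.8 CPM and was higher by 1.92 ± 0.35 (adjusted p = 0.00137). Their mu86 libraries overlapped those of N2. For col-125 the daf-2 libraries read 1.27, 0.196 and 0.331 CPM and the mu86 libraries 6.91, 8.10 and 39.9 CPM (4.91 ± 1.26, adjusted p = 0.0176). For col-168 they read 0.469, 0.164 and 0.482 CPM and 3.68, 4.88 and 17.8 CPM (4.54 ± 1.27, adjusted p = 0.0295), and for col-180 3.42, 0.753 and 2.35 CPM and 13.0, 16.2 and 56.8 CPM (3.71 ± 0.96, adjusted p = 0.0182). In these 3 collagens library 3 of mu86 was by far the highest, as in the collagen sum. Without it, or without library 2 or 3 of daf-2, none of the 3 was called, nor was col-168 without library 1 of daf-2 (adjusted p from 0.056 to 0.111).

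**Figure D3:**
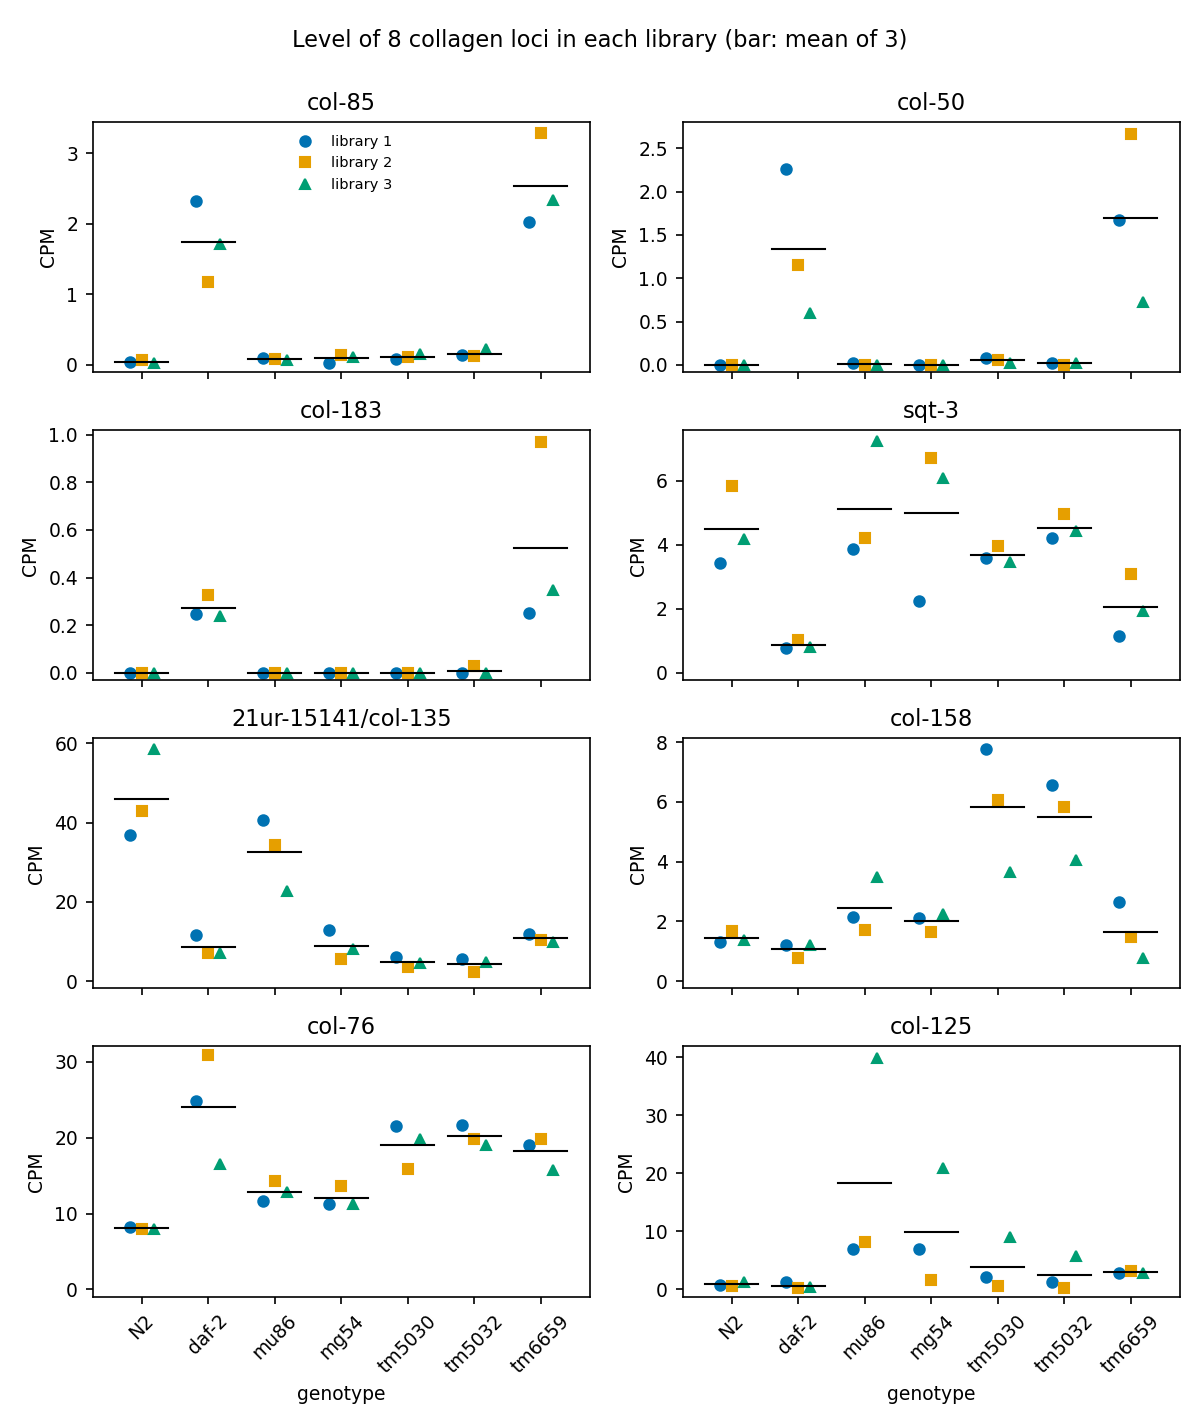
Level of 8 collagen loci in CPM on linear axes, by genotype. Symbols are the 3 libraries of a genotype and bars their mean. The collagens col-85, col-50 and col-183 stand highest in daf-2 and tm6659. In the other 5 genotypes the highest reading of the 3 is 0.219 CPM of col-85, in library 3 of tm5032.

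The median member changed by 0.51 in mu86 against daf-2, while the median over all loci was -0.01, and 106 of 133 members had a positive fold change. Without the libraries numbered 3, left out after the data were seen, the members' median was 0.06 and that of all loci -0.01. Leaving out library 3 of mu86 alone gave 0.04.

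The mg54 mutation, which affects both daf-16a and daf-16f, gave 5 members higher and 5 lower than daf-2. Together they again make 7.52% of the 133 tested, with 3.77% of all loci higher and a further 5.57% lower. With 1 FPKM added there were 4 higher and 2 lower, and the share of all loci on that scale is not given here. With TMM scaling the 5 lower ones were the same loci as in mu86. There was no count of col-50 or col-183 in mg54 (at least 44.2-fold and 8.71-fold lower, adjusted p = 0.00035 and 0.0183), and col-85 stood at 0.0317, 0.136 and 0.111 CPM (-4.18 ± 0.45, adjusted p = 1.14e-05). The log2 fold changes of col-76 and col-86/rict-1 were -0.99 ± 0.18 and -0.60 ± 0.16 (adjusted p = 0.00177 and 0.0208). The call of col-183 was lost without library 2 of daf-2 or library 3 of mg54 (adjusted p = 0.053 and 0.0544), and that of col-86/rict-1 without library 1 or 2 of daf-2 or 1 or 3 of mg54 (0.0676 to 0.154). With the replicate number as a block, 19 members were higher and 9 lower, where 8.41% and 10.6% of all loci were. The additional calls included col-168, col-180 and the transmembrane collagen gene col-99.

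The higher loci in mg54 were sqt-3, dpy-5, dpy-13, col-125 and col-48. Of these sqt-3, dpy-5 and dpy-13 are body-shape collagens, and losing either dpy gene leaves animals short. The level of sqt-3 was 2.25, 6.71 and 6.08 CPM (2.53 ± 0.41, adjusted p = 0.000548). For dpy-5 the daf-2 libraries read 0.249, 0.0655 and 0.120 CPM and the mg54 libraries 1.02, 0.443 and 1.23 CPM (2.58 ± 0.74, adjusted p = 0.0351). For dpy-13 they read 0.276, 0.262 and 0.241 CPM and 1.33, 0.783 and 1.62 CPM (2.25 ± 0.65, adjusted p = 0.0366). The change of col-125 was 4.02 ± 1.22 (adjusted p = 0.0475), and that of col-48, outside the rule for named genes and picked after its values were seen, 1.76 ± 0.43 (adjusted p = 0.0138). Without library 3 of mg54, only sqt-3 of these 5 was still called. The other 4 then had adjusted p from 0.0516 to 0.189. For col-125, dpy-5 and dpy-13 leaving out library 1 of mg54, or library 2 or 3 of daf-2, ended the call as well, as did leaving out library 1 of daf-2 for col-125 and dpy-13 (0.054 to 0.16).

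The mg54 and mu86 libraries did not overlap at the col-135 locus, but edgeR did not call it between them without the replicate block. It read 12.8, 5.58 and 8.19 CPM in mg54, overlapping the daf-2 libraries and below every mu86 library. In mg54 against mu86 edgeR called no member, with 1 higher and 1 lower at an unadjusted p under 0.05 (0.471% and 0.653% of all loci), while DESeq2 called 1 lower (0.0479% of all loci). The background was 0.00827% of all loci higher and 0.0248% lower. The change of the col-135 locus was -1.88 ± 0.35, with an adjusted p of 0.124 and, with the replicate block, 0.00658. Under the block it was the only member called, and 0.0496% of all loci were lower.

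**Figure D4:**
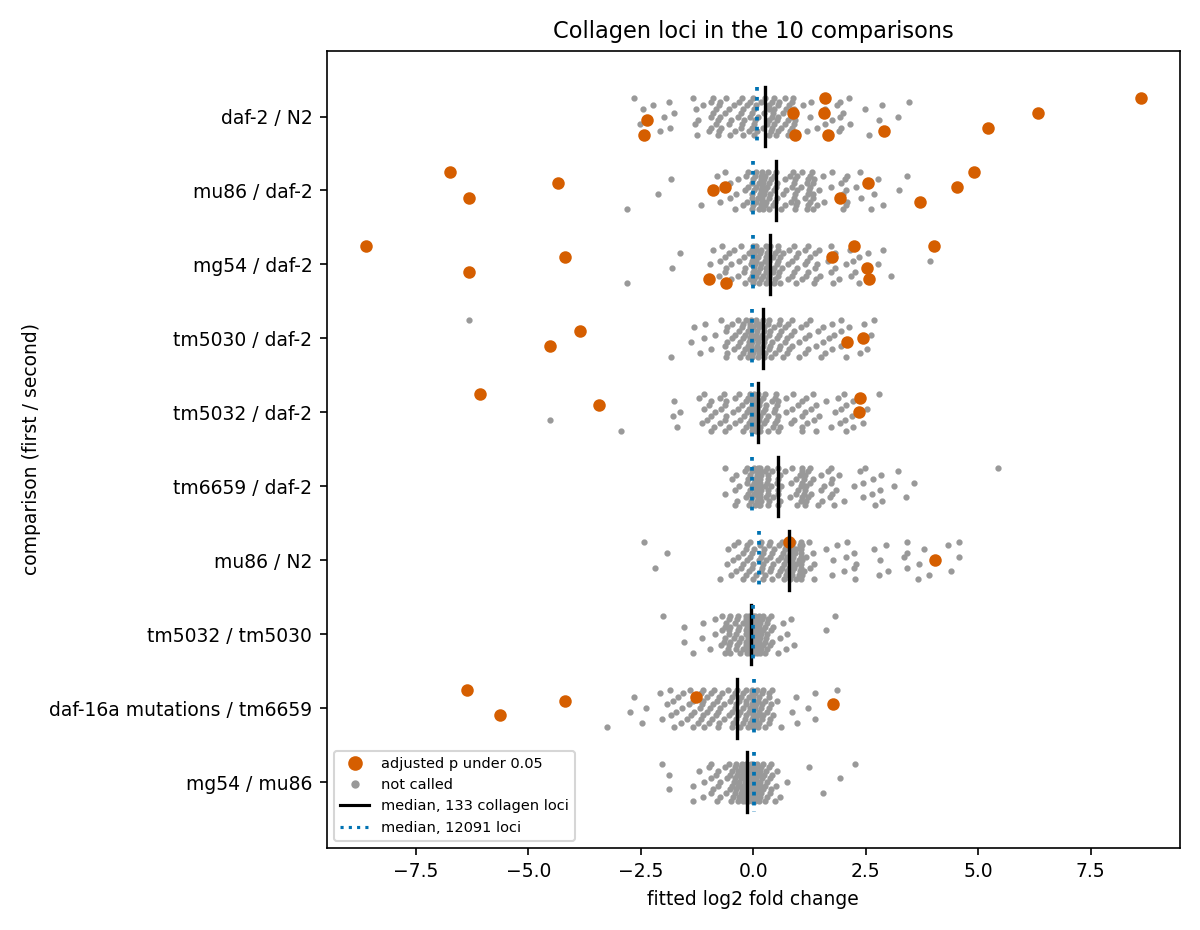
Fitted log2 fold change of the 133 tested collagen loci in the 10 comparisons. Each point is a locus, larger orange points have an adjusted p under 0.05, solid lines are the median of the members and dotted lines that of all 12091 loci. The median of the members was 0.51 in mu86 against daf-2 and -0.37 for the daf-16a mutations against tm6659.

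Each of the independent daf-16a mutations gave the same 4 calls against daf-2, with col-85 and col-50 lower and sqt-3 and col-158 higher. In tm5030 the 2 higher and 2 lower members compare with 0.331% and 0.579% of all loci, and in tm5032 the 2 higher and 2 lower with 0.488% and 0.554%. Both comparisons use the daf-2 libraries. With the replicate block 4 members were lower in tm5030 (2.13% of all loci) and 5 in tm5032 (1.95%). In both strains col-183 and bli-6 were among the added ones.

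In tm5030 col-85 had 0.0828, 0.110 and 0.159 CPM, and in tm5032 0.133, 0.121 and 0.219 CPM (-3.85 ± 0.43 and -3.43 ± 0.42, adjusted p = 0.000268 and 0.000338). The tm5030 libraries held 3, 2 and 1 counts of col-50 (-4.53 ± 0.76, adjusted p = 0.0136), and the tm5032 libraries 2 in all against 137 in daf-2, a ratio of 81.7 (interval 22.2 to 682, adjusted p = 0.00397). With only 1 count in tm5032 and none in tm5030, col-183 did not pass the test in either strain (adjusted p = 0.126 and 0.0777), but did with the replicate block (0.035 and 0.0239).

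The body-shape gene sqt-3 had 3.59, 3.97 and 3.47 CPM in tm5030 and 4.22, 4.96 and 4.42 CPM in tm5032, all above the 3 daf-2 libraries (2.08 ± 0.40 and 2.38 ± 0.40, adjusted p = 0.0167 and 0.00546). The collagen col-158 had 1.22, 0.786 and 1.20 CPM in daf-2, 7.78, 6.06 and 3.66 CPM in tm5030 and 6.58, 5.83 and 4.06 CPM in tm5032 (2.44 ± 0.41 and 2.36 ± 0.40, adjusted p = 0.00516 and 0.00621). The other strains stayed at or below 3.48 CPM of col-158. When only the strains compared were fitted, none of these 8 calls remained. The tm5030 call of sqt-3 was lost without any 1 of 5 of the 6 libraries, all but library 3 of tm5030 (adjusted p from 0.0517 to 0.0825), and that of col-50 without any tm5030 library or library 1 of daf-2 (0.0606 to 0.0718).

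The daf-16a strains were not told apart by their collagens. In tm5032 against tm5030, edgeR called no member and DESeq2 none, 1 member (the strut collagen bli-2) was higher at an unadjusted p under 0.05 (0.248% of all loci), and 0.00827% and 0.0165% of all loci were called higher and lower. The median fold change was -0.05.

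No collagen locus passed the test in tm6659, the daf-16f mutant, against daf-2. There, 27 members were higher and 3 lower at an unadjusted p under 0.05, DESeq2 called 5 higher and 0 lower, and 0.0414% and 0.132% of all loci were called by edgeR. Of all loci 1.62% were higher and 1.76% lower at an unadjusted p under 0.05, and DESeq2 called 0.158% and 0.186%. Of the loci lower in mu86 and mg54, col-85, col-50 and col-183 were all read in tm6659. The level of col-85 was 2.02, 3.28 and 2.34 CPM, that of col-50 1.67, 2.67 and 0.730 CPM and that of col-183 0.252, 0.970 and 0.350 CPM. Their ranges overlapped those of daf-2. With the replicate block 3 members were higher and 1 lower (0.207% and 0.496% of all loci). They were dpy-5 (1.63, 2.46 and 1.31 CPM), dpy-13 (2.22, 3.22 and 1.40 CPM) and col-17 above daf-2, and col-86/rict-1 below it. The adjusted p of dpy-5 was 0.0851 without the block and 0.0312 with it, and that of dpy-13 0.0851 and 0.0358.

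The difference between the isoform mutants was tested as the mean of the 2 daf-16a strains against tm6659. This called 4 members lower (col-85, col-50, col-183 and the col-135 locus) and 1 higher (col-158), where 1.27% of all loci were lower and 1.17% higher. The median log2 fold change was -0.37 for the members and 0.01 for all loci. The members' median was -0.59 without library 3 of tm5030 or of tm5032, -0.87 without all libraries numbered 3 and -0.13 without those numbered 2. The log2 fold change of col-85 was -4.19 ± 0.33 (adjusted p = 1.06e-06) and that of col-50 -5.64 ± 0.62 (adjusted p = 0.00031). A single count of col-183 in 6 libraries stood against 60 in the 3 libraries of tm6659, a ratio with an exact interval of 20.5 to 4760 (adjusted p = 0.0065). The col-135 locus read 6.13, 3.61 and 4.53 CPM in tm5030, 5.62, 2.39 and 4.72 CPM in tm5032 and 11.9, 10.5 and 10.0 CPM in tm6659 (-1.27 ± 0.28, adjusted p = 0.0229). For col-158 tm6659 held 2.66, 1.49 and 0.788 CPM, below all 6 daf-16a libraries (1.77 ± 0.36, adjusted p = 0.0127). The col-135 call was lost without library 2 of tm5030 or any library of tm6659 (adjusted p from 0.0557 to 0.138), and that of col-158 without library 2 or 3 of tm6659 (0.0796 and 0.0616).

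With the replicate block this contrast called 28 members lower and 5 higher, against 4.28% and 3.57% of all loci. The added lower loci included bli-6 (-1.85 ± 0.67, adjusted p = 0.203 without and 0.00077 with the block) and the adult markers col-7 and col-62. The level of bli-6 was 12.8, 3.72 and 29.6 CPM in tm5030 and 12.4, 2.63 and 22.5 CPM in tm5032, below 52.5, 38.6 and 59.2 CPM in tm6659.

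**Figure D5:**
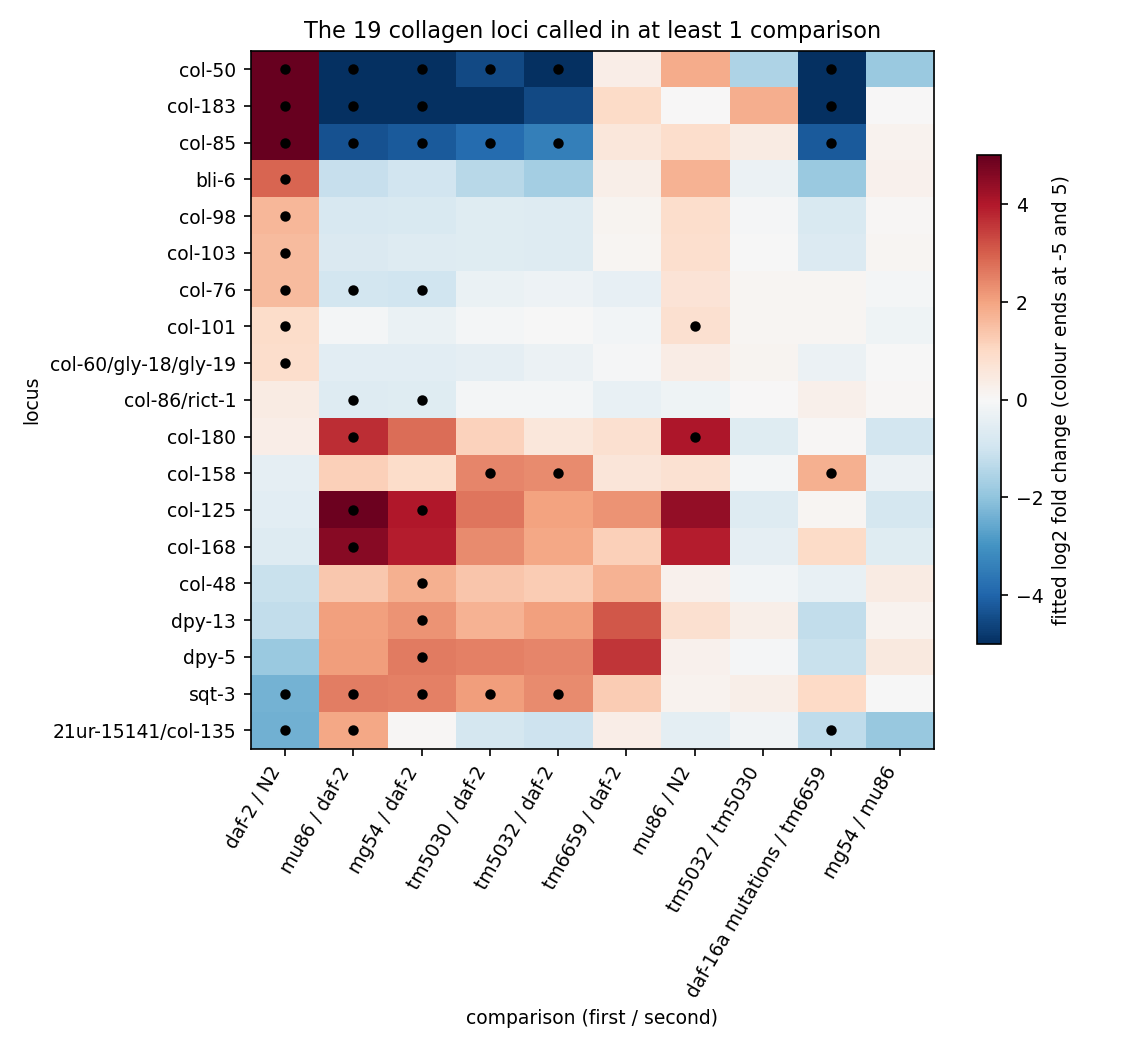
Fitted log2 fold change of the 19 collagen loci called in at least 1 of the 10 comparisons, in colour, with dots where the adjusted p was under 0.05. Colours end at -5 and 5, and several values of col-50 and col-183 rest on groups with few or no counts. The rows of col-85, col-50 and col-183 are red in daf-2 against N2 and blue in mu86, mg54, tm5030 and tm5032 against daf-2.

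Against N2, mu86 animals (which carry daf-2(e1370) as well) had 2 members called higher, col-101 and col-180, and none lower, where 1.35% and 0.174% of all loci were called. At an unadjusted p under 0.05 there were 42 higher and 2 lower, and DESeq2 called 8 and 1. Of all loci 17.1% and 11.1% passed at that unadjusted p. DESeq2 gave an adjusted p to 3212 loci here, 28 of them members, and called 4.23% of these loci higher and 23% lower. The level of col-101 in mu86 was 1041, 1170 and 1397 CPM, above all N2 libraries (0.80 ± 0.16, adjusted p = 0.0184). Library 3 of N2 stood at 894 CPM. For col-180 the N2 libraries read 1.49, 0.986 and 2.70 CPM (4.05 ± 0.98, adjusted p = 0.0472). The call of col-180 was lost under 15 of 16 alternatives, and that of col-101 under 8, among them leaving out library 1 or 2 of N2 or library 2 or 3 of mu86 (adjusted p from 0.0603 to 0.17). For col-180 leaving out any of the 6 libraries ended it (0.0573 to 0.283). With the replicate block 58 members were higher and 5 lower, among 27.9% and 20.3% of all loci. The 8 most abundant members were all in that group, with log2 fold changes of 0.82 to 1.12 in the blocked fit and adjusted p from 0.00147 to 0.00415.

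Grouped by role, the furrow collagens dpy-2, dpy-3, dpy-7, dpy-8, dpy-9 and dpy-10 did not pass edgeR's test without the block in any of the 10 comparisons, nor with the block in the 8 paired ones, and DESeq2 called none where it gave an adjusted p. At an unadjusted p under 0.05 between 0 and 2 of the 6 were higher and none lower. The most strongly expressed of them, dpy-10, read 3.78 ± 0.881 CPM in N2, 3.58 ± 0.633 in daf-2 and 2.75 ± 0.624 in mu86 (SD, n = 3). The list of strut collagens held only bli-1 (in a locus shared with col-39, col-79 and col-80) and bli-2. These had no call by DESeq2 or by edgeR without the block either, and at an unadjusted p under 0.05 at most 1 of the 2 passed in a comparison. The blister collagen bli-6, outside this list, was called higher in daf-2 against N2 by edgeR (adjusted p = 0.0277). With the block the bli-1 locus was higher in mu86 than in N2 (1.06, adjusted p = 0.00289).

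The 11 other body-shape collagens shared a pattern of signs. All 11 had a negative fold change in daf-2 against N2 (median -1.23, 1 called), and all 11 a positive one in mu86, mg54, tm5030 and tm5032 against daf-2, where the medians were 1.33, 1.46, 1.75 and 2.05. These counts of signs were the same with RLE and upper-quartile scaling and on both FPKM scales. Among all 133 members, 78 were positive in daf-2 against N2 and 106, 97, 83 and 80 in these 4 strains. Over all loci 55.2% were positive in daf-2 against N2 and 49.2%, 48.2%, 44% and 44.9% in the 4 strains. In tm6659 10 of 11 were positive, where 112 of 133 members and 43.4% of all loci were, with a median of 2.49, but none passed edgeR's test, 8 had an unadjusted p under 0.05, and DESeq2 called 3. These 6 comparisons share the daf-2 libraries, where the members stood low. For rol-6 the daf-2 libraries read 0.166, 0.0327 and 0.211 CPM, and those of tm6659 0.733, 1.47 and 0.467 CPM. For sqt-1 they read 0.387, 0 and 0 CPM and 0.435, 1.02 and 0.847 CPM. Other than sqt-3, dpy-5 and dpy-13, the list had no call without the block. With it dpy-14 was lower in mu86 than in N2 (adjusted p = 0.0208), and 2 of the list were higher in the daf-16a strains than in tm6659. Where the numbers did not pair the libraries, the block called dpy-14 and dpy-17 lower in daf-2 than in N2 (0.0246 and 0.0311). There it also called dpy-13 higher in mu86 than in daf-2 (0.0467). In the daf-2 libraries dpy-17, whose product SQT-3 needs for its secretion, had the highest mean of the list, 3.13 ± 0.212 CPM, and the other 10 had means of 0.867 CPM or less.

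Of the adult markers, col-19 had mean levels of 971 ± 362 CPM (SD, n = 3) for N2 and 1287 ± 407 for daf-2, and of 1833 ± 616 for mu86 and 1356 ± 258 for tm6659, and col-7 and col-62 were far lower, with means of at most 13.3 and 13.1 CPM in any genotype. None of the 3 was called by DESeq2 or by edgeR without the block in any comparison, and all 3 had an unadjusted p under 0.05 in mu86 against N2. With the block all 3 were higher there (adjusted p = 0.00408 for col-19, 0.0116 for col-7 and 0.00548 for col-62). The collagens col-10, col-13 and col-120, which have been linked to long life in animals with reduced insulin signalling, had no call by DESeq2 or by edgeR without the block in any of the 10 comparisons, with at most 2 at an unadjusted p under 0.05 (in mu86 against N2). With the block col-10 and col-13 were higher and the col-120 locus lower in mu86 than in N2 (adjusted p = 0.00687, 0.00453 and 0.00843), and col-13 was lower in the daf-16a strains than in tm6659 (0.0278). In daf-2 against N2 their fold changes were 0.36 ± 0.41, 1.42 ± 0.97 and -0.09 ± 0.16, the last for the shared locus col-120/flh-1. Among the 5 genes that are no cuticle collagens, edgeR made no call without the block, and DESeq2 called 1 higher in mg54 against daf-2, while at most 1 in a comparison had an unadjusted p under 0.05. With the block col-99 was higher in mg54 than in daf-2 (adjusted p = 0.00516), F53G12.11/bli-3 and rol-3 in mu86 than in N2 (0.0311 and 0.0177), and bli-4 in the daf-16a strains than in tm6659 (0.0473).

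Neighbouring members did not always have like levels. A total of 46 member genes lie next to another member in the RefSeq annotation, in 19 runs. The longest run, col-167 to col-171, holds 3 loci with large ranges in mu86. There, col-167 and col-169, picked after their values were seen, stood beside col-168, and col-167 read 7.51, 7.94 and 43.7 CPM, col-168 3.68, 4.88 and 17.8 CPM and col-169 0.630, 0.444 and 2.46 CPM. In contrast col-183, with at most 0.970 CPM in any library, lies beside col-184, one of the 8 most abundant members.

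Some genes that act with the collagens were called, where 10.9% of all loci were higher and 5.84% lower in daf-2 against N2. Of 11 tested loci for the synthesis and processing of collagen, 1 was higher and 1 lower in daf-2 against N2. They were sec-23, of the COPII coat that carries collagen out of the endoplasmic reticulum (-0.26 ± 0.05, adjusted p = 0.00329), and a locus of 5 genes with dpy-11, which encodes a thioredoxin-like protein (0.20 ± 0.06, adjusted p = 0.0232). Of 16 moulting genes, 1 was higher and 1 lower in daf-2 than in N2. The higher one was nas-37, which encodes an astacin protease needed for moulting (0.46 ± 0.14, adjusted p = 0.0356). The lower one, qua-1, a hedgehog-related gene needed for moulting, read 0.481, 0.922 and 0.959 CPM in N2 and 0.387, 0.131 and 0.211 CPM in daf-2 (-1.66 ± 0.46, adjusted p = 0.0182). Against daf-2 it was higher in mu86 (2.55, 2.72 and 3.09 CPM, 3.49 ± 0.47, adjusted p = 9.29e-05), mg54 (3.15 ± 0.47, adjusted p = 0.00027), tm5030 (2.54 ± 0.46, 0.0107) and tm5032 (2.58 ± 0.46, 0.00857), and in none of these 4 did its groups overlap. In mu86 it was the only one of the 16 that edgeR called without the block. There 4.13% of all loci were called higher and 6.16% lower.

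Of 21 tested loci with other cuticle proteins of the cut and cutl families (cuticlins), 4 were higher and 2 lower in daf-2 against N2. In mu86 against daf-2, 2 were higher and 2 lower. Of all loci 10.9% and 5.84% were called in the first comparison, and 4.13% and 6.16% in the second. The cuticlin gene cut-6 had 0.131, 0.191 and 0.0778 CPM in N2, whereas the daf-2 libraries read 1.35, 1.02 and 1.05 CPM and those of mu86 0.151, 0.157 and 0.0986 CPM (3.08 ± 0.47 and -3.03 ± 0.47, adjusted p = 0.000221 and 0.000336). In tm6659 it was at 1.03, 1.62 and 0.847 CPM, and the daf-16a strains lay below that (-1.91 ± 0.35, adjusted p = 0.00641). In the opposite direction cutl-18 fell from 5.62, 5.66 and 4.82 CPM in N2 to 0.773, 0.393 and 0.693 CPM in daf-2 and stood at 6.53, 8.07 and 4.96 CPM in mu86 (-3.10 ± 0.43 and 3.38 ± 0.44, adjusted p = 1e-04 and 6.38e-05). There was no count of cut-2 in daf-2, and it was called lower than in N2 and higher in mu86 and mg54 than in daf-2.

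Among 12 tested regulators of the epidermis and of moulting, blmp-1 (a zinc-finger transcription factor) was higher and the nuclear receptor gene nhr-25 lower in daf-2 than in N2 (0.78 ± 0.16 and -1.42 ± 0.40, adjusted p = 0.00225 and 0.0203). In that comparison 10.9% of all loci were called higher and 5.84% lower. Both nhr-25 (1.70 ± 0.40) and the locus with the developmental-timing gene lin-14 (1.04 ± 0.28) were higher in mg54 than in daf-2 (adjusted p = 0.0108 and 0.0247), and the lin-14 locus was higher in mu86 as well (1.09 ± 0.28, adjusted p = 0.0171). Among 6 loci known to rise when furrow collagens are lost, gpdh-1, which encodes a glycerol-3-phosphate dehydrogenase of the osmotic response, went from 3.13, 3.40 and 4.46 CPM in N2 to 1.63, 0.491 and 0.934 CPM in daf-2 and 10.7, 15.1 and 22.1 CPM in mu86 (-1.84 ± 0.39 and 3.96 ± 0.41, adjusted p = 0.00309 and 7.28e-06). The gst-4 locus moved the other way, by 0.84 ± 0.16 and -0.59 ± 0.16 (adjusted p = 0.00163 and 0.0265), and the locus of nlp-29, an antimicrobial peptide gene, rose in daf-2 by 0.84 ± 0.27 (adjusted p = 0.0388). The basement-membrane collagens emb-9, let-2 and cle-1 were not called by edgeR without the block in any comparison, and with it 2 of the 3 were higher in mu86 than in N2. There were 0 to 2 of 3 at an unadjusted p under 0.05 in a comparison, and DESeq2 called 1 of them higher in mu86 against N2. In tm5030, emb-9 stood at 318.7, 212.4 and 436.4 CPM, with library 3 the highest and library 2 the lowest, as in the sum of the cuticle collagens.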

How the data were processed

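Poly(A) RNA of whole worms was sequenced as 100-cycle paired-end reads with a kit that does not mark strand, per the labels' protocols. Per the submitters' processing notes the tools were CASAVA 1.8.2, TopHat2 2.0.9 and Cufflinks 2.1.1. The genome build was not given in the sources used here, nor was the annotation. Per the submitters' processing notes and as deposited, the authors made 1 table of estimated counts and 1 of FPKM per locus. Of the count values 86.3% were whole within 1e-09. Genes that overlap were joined into 1 locus by the authors, so reads of such genes cannot be told apart, and 51 of the tested members carry fractional counts. Loci without a gene name (300, with 1.06 to 1.54% of counts) and 3 entries that are not loci were left out.

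Counts were rounded and tested with edgeR 4.0.16 in R 4.3.3 (TMM scaling, filterByExpr, quasi-likelihood F-test, 1 fit of all 21 libraries by genotype). P-values were adjusted by Benjamini-Hochberg over 12091 loci. The standard error is the fold change divided by the square root of F. The procedure was tested on simulated data. Alternatives were DESeq2 1.42.0, limma 3.58.1 on log2(FPKM + 1) and log2(FPKM + 0.1), other scalings, no low-count filter, only the groups compared, joined loci left out, each library left out, and the replicate number as a block. Leaving out all libraries numbered 2, or all numbered 3, was added after seeing the data.

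Same-numbered libraries were taken as paired where each of the 3 correlations of their deviations from the genotype means was above 0.1. This held for 8 of 10 comparisons (0.13 to 0.89), not for daf-2 against N2 (lowest -0.09) or mu86 against daf-2 (lowest -0.32). The pairing comes from these correlations, as the labels do not say what the numbers mark.

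Members and gene lists were chosen with earlier results of these data known. Named genes are the members of the role lists, the called members with the largest changes and a mean of at least 2 CPM, the 8 most abundant members, those called in both daf-2 against N2 and mu86 against daf-2, and called genes of the other cuticle lists. Exact intervals and the floor of 3 counts over a group are for counting error only. Sequences of these genes were not analysed here.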

Additional observations from a re-analysis of the deposited data

Results flagged for a closer look

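A total of 5 loci were picked out because the effect of the daf-16a mutations and that of tm6659 differed in the direct test (edgeR, mean of tm5030 and tm5032 against tm6659, both in the daf-2(e1370) background). The fitted log2 fold change was -4.19 for col-85 (adjusted p = 1.06e-06), -5.64 for col-50 (0.00031), -6.36 for col-183 (0.0065), -1.27 for 21ur-15141/col-135 (0.0229) and 1.77 for col-158 (0.0127). For none of the 5 loci did any of the 6 daf-16a libraries overlap the 3 of tm6659. The loci were picked by the test on these same libraries, so this adds no separate evidence. The share of all loci without overlap is not given here. The fitted values of col-50 and col-183 rest on groups with 8 and 1 counts in 6 libraries and are no bounds. These 5 loci were seen in earlier results of the same data, and the direct test uses the same libraries as the comparisons with daf-2.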

How the results depend on the processing

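Across the alternatives no called collagen locus changed direction, and it was called again in 576 cases and not in 167. The calls of col-85, col-50 and sqt-3 in daf-2 against N2, mu86 against daf-2 and mg54 against daf-2, and of the col-135 locus in the first 2, held under all alternatives run. Numbers below are members higher or lower. Shares of all loci are given only for DESeq2 and for the block in the paired comparisons. The other counts cannot be set against all loci, whose calls may have moved as well. The cause of the differences between settings was not tested.

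DESeq2 gave 4 lower in daf-2 against N2, 11 higher in mu86 and 14 in mg54 against daf-2, 5 higher in tm6659, 8 higher and 1 lower in mu86 against N2, 2 higher for daf-16a mutations against tm6659, and 1 lower in mg54 against mu86. Of the loci with an adjusted p from DESeq2, 9.12% were lower in daf-2 against N2, 4.99% higher in mu86 and 4.71% higher in mg54. Those loci held 146, 154 and 154 members. For daf-16a mutations against tm6659 2.03% were higher, with 146 members. The other DESeq2 shares stand above. Log2(FPKM + 0.1) gave 4 higher and 9 lower in daf-2 against N2, 3 lower in mu86 and 3 in mg54, 1 higher in tm5030, 2 higher in tm6659, 0 higher in mu86 against N2, and 1 lower in mg54 against mu86. Log2(FPKM + 1) gave 3 higher and 6 lower in daf-2 against N2, 2 lower in mu86 and 2 in mg54, 1 higher and 1 lower in tm5030, 1 higher in tm5032, 0 higher in mu86 against N2, and 1 lower in mg54 against mu86. In mu86 against N2, 1 was higher with RLE or upper-quartile scaling or no filter. Upper-quartile scaling gave 8 higher in mu86, no filter 7 lower for daf-16a mutations against tm6659, and leaving out joined loci 1 lower in daf-2 against N2. With only the groups compared, none was called in tm5030 or tm5032 (0 higher, 0 lower), 3 were lower in mu86 and 2 in mg54, 0 higher in mu86 against N2, and 0 higher and 2 lower for daf-16a mutations against tm6659.

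Without all libraries numbered 2, 2 were higher and 2 lower in mu86, 1 higher and 3 lower in mg54, 0 and 1 in tm5030, 0 and 1 in tm5032, 0 higher in mu86 against N2, and 0 and 1 for daf-16a mutations against tm6659. Without those numbered 3, 17 were higher in daf-2 against N2, 2 in mg54, 1 in tm5030, 1 in tm5032 and 1 in mu86 against N2, and 8 lower for daf-16a mutations against tm6659. Both settings were chosen after seeing the data. The shares of all loci called in these refits, and in those without 1 library, are not given here.

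Leaving out 1 library gave 5 to 10 higher and 2 to 3 lower in daf-2 against N2, 2 to 13 and 4 to 6 in mu86, 1 to 10 and 3 to 5 in mg54, 1 to 2 and 1 to 2 in tm5030, 2 to 3 and 2 to 2 in tm5032, 0 to 1 and 0 in tm6659, 0 to 2 and 0 in mu86 against N2, 0 to 1 and 3 to 8 for daf-16a mutations against tm6659, and 0 in the other two. The widest moves were 13 without library 1 of mu86 and 10 without library 2 of mg54.

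With the replicate block, the 2 comparisons whose numbers did not pair the libraries gave 44 higher and 8 lower (daf-2 against N2) and 17 and 9 (mu86 against daf-2). The shares of all loci called in these 2 comparisons with the block are not given here, so the counts cannot be read against them. Among the members called were the furrow collagen dpy-2 (adjusted p = 0.0421) and col-99 (0.0173) in mu86, and the bli-1 locus bli-1/col-39/col-79/col-80 (0.00228), col-62 (0.00644) and col-13 (0.0378) in daf-2, all higher. In the paired ones it gave 19 and 9 in mg54, 4 lower in tm5030, 5 lower in tm5032, 3 and 1 in tm6659, 58 and 5 in mu86 against N2, 5 and 28 for daf-16a mutations against tm6659, and 1 lower in mg54 against mu86.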

Other observations

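The dauer collagens col-2 and col-40 and the low-level collagen col-36 (picked after its values were seen) had their highest readings in libraries 1 and 2 of tm6659. The level of col-2, which was not tested, was 1.54, 1.23 and 0.146 CPM in tm6659 and 0.110, 0.131 and 0.241 CPM in daf-2. That of col-40 was 1.08, 1.18 and 0.146 CPM in tm6659, 0.326 ± 0.0846 CPM in daf-2 and 0.0279 ± 0.0261 CPM in N2 (SD, n = 3). It was not called in daf-2 against N2 by edgeR (adjusted p = 0.0651), where 33 counts stood against 3, a ratio of 12.7 (interval 4 to 64.9), while DESeq2 called it higher. For col-36 the tm6659 libraries read 2.54, 0.498 and 0.0292 CPM, and 2 counts were found in daf-2 (ratio of the summed counts 56.4, interval 15.3 to 471, adjusted p = 1), so that library 1 holds most of the signal. In all 3 collagens library 3 of tm6659 was the lowest of its genotype.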
